A study of Mus musculus with 40 samples.

Results

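The genomes of 5 gut bacteria counted in RNA of mouse cecal contents held 224 features with symbols of amino acid synthesis outside the tryptophan and branched-chain pathways, of 18455 features in the 6 deposited tables. They were chosen by symbol alone: his, arg, aro, ser, thr, lys, dap, pro, cys or met followed by a single capital letter, with any copy number removed. The tRNA ligase symbols hisS, argS, serS, thrS, lysS, proS, cysS, metG and metS, and also metH, were left out, and no measured value entered the choice. F. rodentium held 57 of these members, Acetatifactor 50, L.bacterium335 48, D. muris 44 and X. muris 25. They spanned 67 symbols, of which 19 occurred in all 5 genomes and 24 in 1 genome. A copy number was attached to 53 members, such as dapL_1, and the separate counts of copies are uncertain. The symbols also take in some genes that are not synthesis enzymes, such as methionine uptake (metN, metQ), the tRNA ligases lysU and thrZ, and metK, which uses methionine. Between 1 and 8 members of each genome were of that kind. Product names were not used here, so the roles given are those known for each symbol.

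All animals were C57BL/6 mice put on the Total Western Diet at 3 weeks of age, a purified rodent diet built on Western nutrient intakes. After 6 weeks, groups stayed for a further 3 weeks on this diet with broccoli powder at 2.5%, 1% or 0.5% or with none (0%), so the control group ate the Western diet as well. The labels assign 10 libraries of cecal RNA to each group and give no strain, gene or drug difference between groups. No label says that each library came from a separate mouse, so p-values measure only the spread between these libraries. The comparisons ask whether broccoli powder changed the transcription of amino acid pathways, and in which bacterium.

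Depth differed strongly between genomes and doses. The median total per library went from 511338 counts at 0% to 75069 at 2.5% in F. rodentium. It went the other way in the others: from 83651 to 525404 in L.bacterium335, from 35241 to 129471 in Acetatifactor, from 25672 to 91087 in D. muris and from 15995 to 119823 in X. muris. Libraries with at least 10000 counts on a genome were kept, which left 10 in every group for Acetatifactor and L.bacterium335. F. rodentium lost 2 libraries at 2.5%. D. muris kept 9, 9, 10 and 9 libraries from the lowest to the highest dose, and X. muris kept 7, 7, 10 and 9. A level is the counts-per-million value (CPM) of a gene among the tested features of its own genome after TMM scaling, so it describes the make-up of that bacterium's RNA. In bulk RNA of this kind, fewer cells of a bacterium and less RNA per cell cannot be told apart. After the low-count filter, 52 members were tested in F. rodentium, 20 in L.bacterium335, 19 in D. muris, 9 in X. muris and 4 in Acetatifactor, 104 in all. Of the tested members, 18 in L.bacterium335 and 1 in Acetatifactor had no count at 0%. These passed the filter through the broccoli groups alone and so had to differ, which means that their calls support nothing and are given without p-values. In all, 5 members had no count in any library: dapH_2, dapH_3, hisK_1 and metK_1 of F. rodentium and dapH_3 of D. muris.

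Bacteria build most amino acids from a few central intermediates. Chorismate, made by the aro enzymes, is the branch point for aromatic compounds. The aspartate family leads through aspartokinase to threonine, methionine and, by way of the dap enzymes, to diaminopimelate, which is both the precursor of lysine and a cross-linking residue of the cell wall. Arginine and proline start from glutamate, serine and cysteine from a glycolytic intermediate, and histidine from a phosphorylated ribose. Synthesis is costly, and gut bacteria commonly turn such pathways down when the amino acid can be taken up.

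The share of a bacterium's own counts that fell on the members was about 1% in F. rodentium and D. muris and lower in the others. In F. rodentium it ran from 0.439% to 1.46% at 0% (median 0.833%) and from 0.822% to 1.54% at 2.5% (median 0.919%), and the groups overlapped widely. In D. muris it ran from 0.726% to 1.16% at 0% (median 0.979%) and from 1.12% to 1.49% at 2.5% (median 1.24%), and the groups overlapped only at their edge. Its medians at the doses between were 1.08% at 0.5% and 1.17% at 1%. X. muris had a median of 0.0884% at 0% and 0.463% at 2.5%, L.bacterium335 0.109% and 0.589%, and Acetatifactor 0.0216% and 0.448%. The share of counts held by the 5 most counted features moved with these values: its median went from 91.2% to 50.6% in X. muris, from 76.8% to 18.1% in L.bacterium335 and from 56.8% to 28.7% in Acetatifactor, but only from 11.4% to 6.77% in D. muris and from 15.6% to 16.0% in F. rodentium. Its part in the members' share was not tested.

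**Figure D1:**
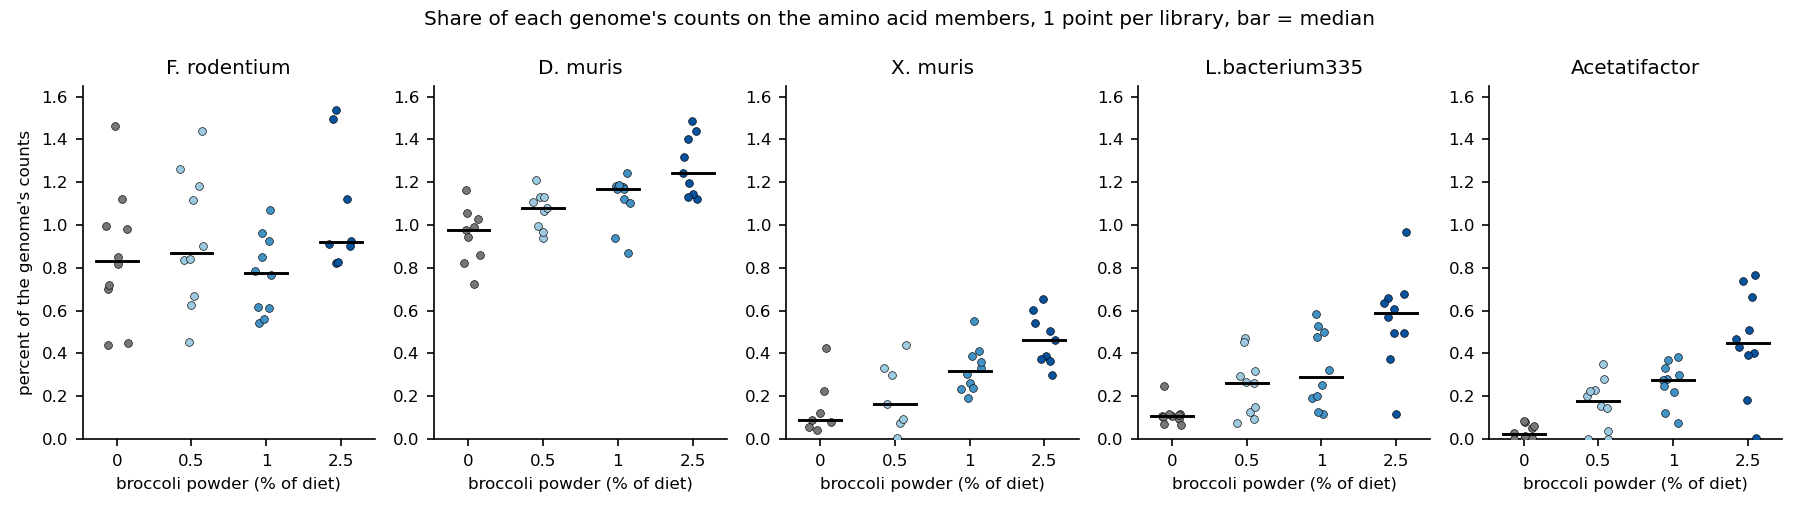
Percent of each genome's counts that fell on the amino acid members (vertical axis) by percent of broccoli powder in the diet (horizontal axis), 1 point per library with at least 10000 counts on the genome and a bar at the median. The median is higher at 2.5% than at 0% in every genome, and the F. rodentium medians lie between 0.775% and 0.919%.

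F. rodentium measured its pathways most fully and changed few of them. At 2.5% 1 of 52 tested members was higher and 1 lower than at 0% (edgeR quasi-likelihood test with Benjamini-Hochberg adjustment over all features of the genome, adjusted p under 0.05, used throughout). Of all 1689 features tested in this genome, 5.39% were higher and 4.03% lower at that dose. At 0.5% 1 member was higher and 1 lower, against 3.55% and 4.91% of all features, and at 1% no member was called, against 0.474% and 0%. At 1% edgeR gave an unadjusted p under 0.05 for 3 members, and DESeq2 called 0. The share of members called was 3.85% at 2.5% and also at 0.5%, from 2 calls at each dose. Over all 1689 features, 159 were called at 2.5% and 143 at 0.5%, so the members' share was the lower. This difference was not tested. The median log2 fold change of the 52 members at 2.5% was 0.18, beside 0.01 over all tested features, and 41 of the 52 were above 0.

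The gene that rose at the highest dose was dapL_1, a copy of LL-diaminopimelate aminotransferase, which makes diaminopimelate in a single step from tetrahydrodipicolinate. Its level ran from 16.7 to 60.6 CPM at 0% (median 34.7, 10 libraries), from 19.8 to 129.5 at 0.5% (median 49.3), from 7.30 to 123.5 at 1% (median 60.0) and from 46.96 to 222.6 at 2.5% (median 92.8, 8 libraries). All 8 libraries at 2.5% lay above the 0% mean, and only their lowest values overlapped the 0% group. The log2 fold change at 2.5% was 1.52 ± 0.38 (SE, adjusted p = 0.0069). The call held in every alternative and without any library in turn, with adjusted p-values of at most 0.047. At 0.5% and 1% the changes were 0.67 ± 0.33 and 0.83 ± 0.35, which were not called (adjusted p = 0.23 and 0.50). The other copy, dapL_2, had a log2 change of -0.43 ± 0.28 at 2.5% (adjusted p = 0.36), with levels of 30.5 to 262.2 CPM at 0% (median 156.7) and 35.97 to 352.2 at 2.5% (median 107.3). The difference between the copies was not tested.

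No other step of the lysine and diaminopimelate pathway was called in F. rodentium. Its 9 tested members had a median log2 change of 0.03 at 2.5%. The most counted, dapX, the aminotransferase of the acetylated branch, had medians of 554.3, 550.8, 540.9 and 586.3 CPM from the lowest to the highest dose, a change of 0.01 ± 0.29 at 2.5%. The dihydrodipicolinate synthase gene dapA, the dihydrodipicolinate reductase gene dapB, the epimerase gene dapF and the decarboxylase gene lysA changed by between -0.01 and 0.10 on the log2 scale. Each of these 5 changes was smaller than its standard error.

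Cysteine genes of F. rodentium were lower where they were called. Serine acetyltransferase, encoded by cysE, activates serine for the cysteine synthase cysK. The cysE_1 copy ran from 74.5 to 213.4 CPM at 0% (median 114.6), from 50.3 to 194.5 at 0.5% (median 104.4), from 31.3 to 142.1 at 1% (median 89.1) and from 0 to 98.4 at 2.5% (median 40.8). None of the 8 libraries at 2.5% reached the 0% mean, and 3 of them, replicates 1, 2 and 4, had no count of it. Those 3 had the smallest totals of the kept libraries at this dose, 43943, 32723 and 45899 counts. Its log2 change was -1.13 ± 0.35 (adjusted p = 0.031). The call was lost with at least 50000 counts per library (-0.82, adjusted p = 0.12), without libraries numbered 76 to 81 in the labels (-1.14, 0.058), in the fit that added each library's total on the genome as a covariate (-1.03, 0.089) and without any of 0% replicates 2, 4 and 6 or 2.5% replicates 3 and 4 (adjusted p at most 0.076).

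cysK stood at 217.8 to 606.3 CPM at 0% (median 274.2), 98.9 to 232.2 at 0.5% (median 172.9), 110.4 to 395.1 at 1% (median 251.6) and 22.5 to 296.8 at 2.5% (median 206.0). It fell at 0.5% (log2 change -0.80 ± 0.24, adjusted p = 0.030), where none of 10 libraries reached the 0% mean. Its changes at 1% and 2.5% were -0.36 ± 0.25 and -0.65 ± 0.27, and neither was called by edgeR (adjusted p = 0.71 and 0.12). DESeq2 called the fall at 2.5% (-0.68, adjusted p = 0.036). The call at 0.5% was lost without libraries 76 to 81, 4 of which belong to the 0.5% group (-0.85, adjusted p = 0.12), and without any of 0% replicates 2 and 4 or 0.5% replicates 2, 5, 6 and 8 (at most 0.095). The second cysE copy, cysE_2, had a change of 0.14 ± 0.41 at 2.5%. The sirohaem genes cysG_1 and cysG_2 had changes of -0.79 ± 0.48 and 0.33 ± 0.39, and none of these 3 was called.

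In the chorismate pathway of F. rodentium, 6 of 7 tested genes had log2 changes above 0 at every dose. Only aroB, 3-dehydroquinate synthase, was called, and only at 0.5%. It ran from 65.4 to 155.9 CPM at 0% (median 101.1), from 106.3 to 304.4 at 0.5% (median 164.4), from 31.3 to 182.7 at 1% (median 119.6) and from 44.98 to 206.7 at 2.5% (median 119.6). All 10 libraries at 0.5% were above the 0% mean (log2 change 0.71 ± 0.23, adjusted p = 0.043), and the changes at 1% and 2.5% were 0.16 ± 0.24 and 0.25 ± 0.27. Without libraries 76 to 81 the change was 0.48 (adjusted p = 0.39). In the fit with the total as a covariate it was 0.61 (adjusted p = 0.088). It was also lost on leaving out any of 0% replicates 5, 6, 7, 9 and 10 or 0.5% replicates 1, 4, 6, 7, 8 and 10, the largest adjusted p being 0.11. The last enzyme of the pathway, chorismate synthase (aroC), had medians of 222.3, 330.4, 283.5 and 270.9 CPM and was not called at any dose. The largest change in the pathway at 2.5% was in the shikimate dehydrogenase gene aroE, with medians of 36.9 CPM at 0% and 90.5 at 2.5% (1.20 ± 0.45, adjusted p = 0.082).

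**Figure D2:**
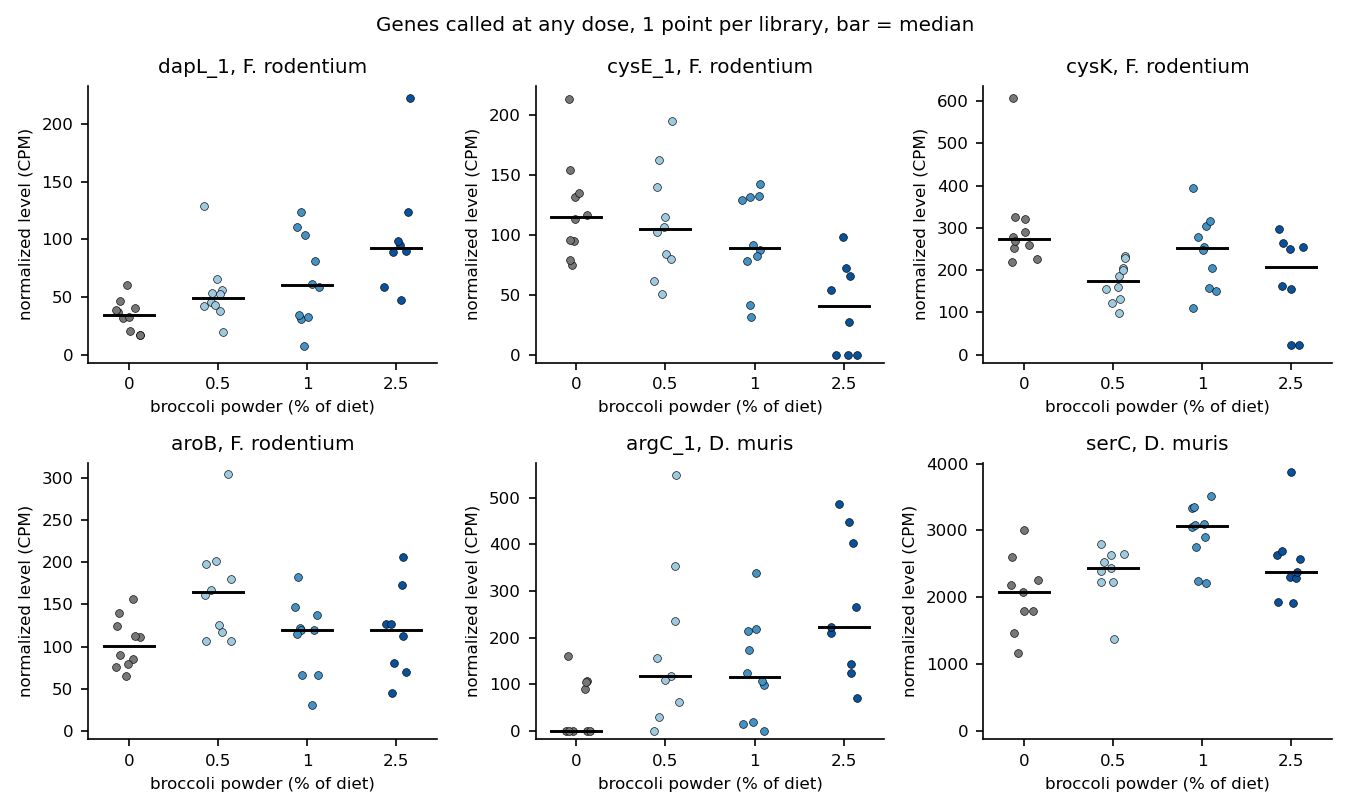
Level in CPM (vertical axes) by percent of broccoli powder (horizontal axes) of the 6 members called at any dose in F. rodentium and D. muris, 1 point per library and a bar at the median. The dapL_1 libraries at 2.5% lie at 46.96 CPM and above, while cysE_1 has 3 libraries at 0 there.

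Histidine and arginine genes of F. rodentium gave no call. The 11 tested histidine genes had a median log2 change of 0.16 at 0.5%, -0.24 at 1% and 0.17 at 2.5%. The largest change at 2.5% was in histidinol dehydrogenase, hisD, the last enzyme of the pathway: 81.3 to 342.4 CPM at 0% (median 178.5) and 161.9 to 427.5 at 2.5% (median 373.8), a log2 change of 0.79 ± 0.30 (adjusted p = 0.081). It passed the threshold without 0% replicate 1 (0.96, adjusted p = 0.037), without 2.5% replicate 8 (0.92, 0.045) and with RLE size factors (0.92, 0.0499). The most counted histidine gene, hisF, the cyclase subunit of imidazole glycerol phosphate synthase, had medians of 386.0, 384.9, 355.3 and 365.9 CPM.

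All 8 arginine genes of F. rodentium had log2 changes above 0 at 2.5%, from 0.01 to 1.60, while 7 of 8 were below 0 at 0.5% and at 1%. The largest, in the acetylornithine aminotransferase copy argD_1, was 1.60 ± 0.57 (adjusted p = 0.068), and its level was low, with a median of 10.95 CPM at 0% and 23.1 at 2.5%. The arginine genes varied widely within a group: argJ, the ornithine acetyltransferase, ran from 32.8 to 700.6 CPM at 0% and from 143.4 to 551.1 at 2.5%. In 5 of the 8, the highest library of all was 0% replicate 1. The remaining pathways of this genome, serine (1 tested), threonine (3), proline (3) and methionine (5), had no call at any dose. Phosphoserine aminotransferase, serC, had medians of 520.7 CPM at 0% and 458.4 at 2.5%, and the methionine transport ATPase copy metN_1 had 200.8 and 227.9. The threonyl-tRNA ligase thrZ had 446.6 and 599.0, and the proline gene proA, glutamyl phosphate reductase, 98.5 and 98.3.

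**Figure D3:**
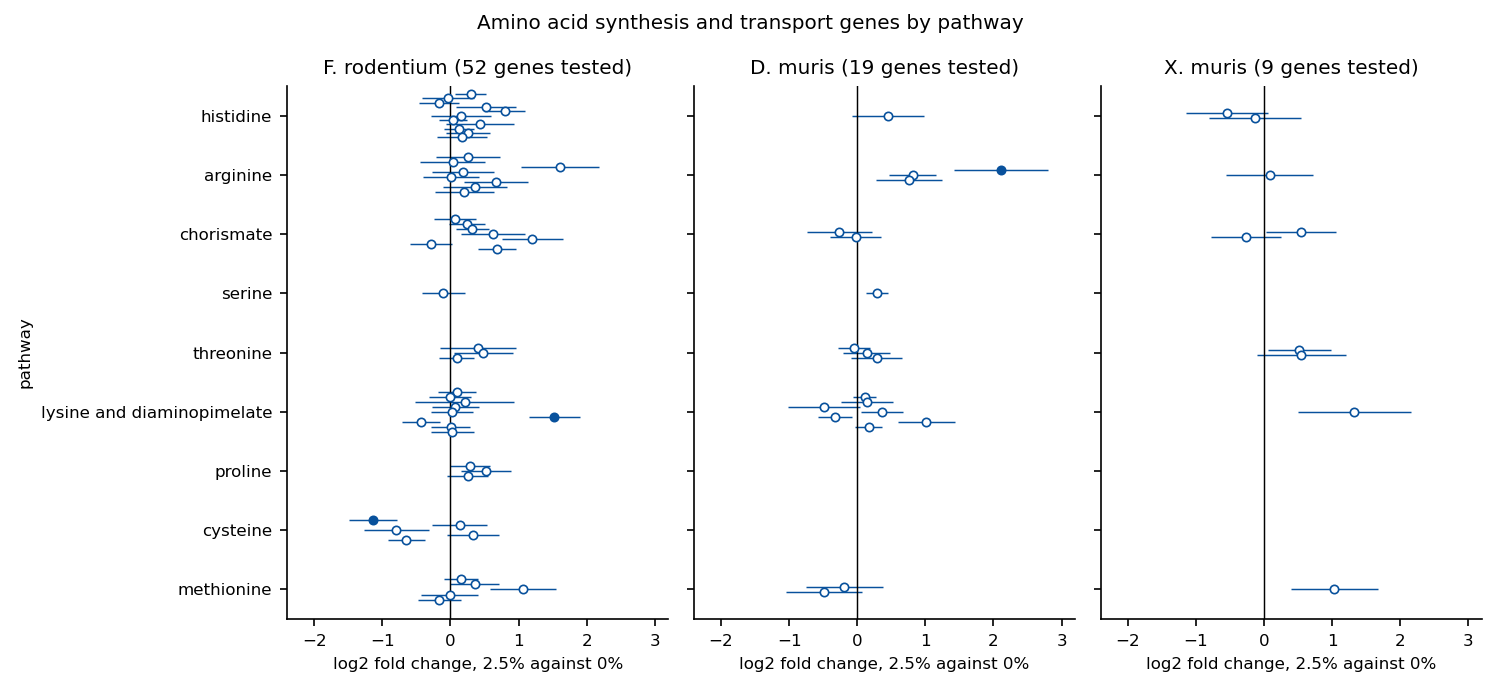
Log2 fold change between 2.5% and 0% with its standard error (horizontal axis) for each tested member, grouped by pathway (vertical axis), in F. rodentium, D. muris and X. muris. Filled points are the calls, which are dapL_1 and cysE_1 in F. rodentium and argC_1 in D. muris.

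D. muris had 1 member higher at 2.5%, 1 at 1% and none at 0.5% among 19 tested, and none lower. Of its 1108 tested features, 3.88% were higher and 6.68% lower at 2.5%, 2.53% and 3.7% at 1%, and 1.81% and 3.16% at 0.5%. At 0.5% edgeR gave an unadjusted p under 0.05 for 3 members, and DESeq2 called 0. The median log2 change of the members at 2.5% was 0.15, beside 0.08 over all tested features, with 12 of 19 above 0.

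The call at 2.5% in D. muris was argC_1, a copy of N-acetyl-gamma-glutamyl-phosphate reductase, an early step of arginine synthesis. It had no count in 5 of 9 libraries at 0% and 13 counts in the other 4, reaching 160.4 CPM. At 0.5% it ran from 0 to 547.7 CPM (median 118.0), at 1% from 0 to 339.3 (median 115.8) and at 2.5% from 71.4 to 485.5 (median 222.2). All 9 libraries at 2.5% were above the 0% mean, though some overlapped the 4 control libraries with counts. The log2 change was 2.11 ± 0.68 (adjusted p = 0.038). With counts in only 4 of 9 libraries at 0%, argC_1 passed the low-count filter through the broccoli groups, so its call supports little. With the genome total as a covariate it was 0.95 (adjusted p = 0.82), and the median total of D. muris was itself higher at 2.5%. The call was also lost without any of 0% replicates 2, 3, 6, 7 and 9 or 2.5% replicates 3, 5 and 6 (adjusted p at most 0.080).

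The other tested arginine genes of D. muris had changes in the same direction that were not called. argC_2 had medians of 373.4 CPM at 0% and 582.4 at 2.5%, with all 9 libraries at 2.5% above the 0% mean (log2 change 0.82 ± 0.35, adjusted p = 0.14). It passed the threshold without 0% replicate 10 (1.10, adjusted p = 0.037). Argininosuccinate synthase, argG, had medians of 110.6 and 320.0 CPM (0.77 ± 0.49, adjusted p = 0.37). Counted together, the 6 arginine members of D. muris took 125.1 to 1120 CPM, here of all counts on the genome, at 0% (median 653.7) and 1067 to 1974 at 2.5% (median 1596). The 9 histidine members, of which only hisK passed the filter, took 87.9 to 839.3 CPM at 0% (median 237.9) and 395.5 to 1250 at 2.5% (median 871.1). The 5 chorismate members stood at medians of 559.8 and 567.4 CPM and the proline members at 162.5 and 168.3. Methionine members had 457.6 and 337.5, serine members 1796 and 2433, threonine members 1326 and 1609, and cysteine members 67.99 and 117.7. These sums are descriptions with no test.

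At 1% the call in D. muris was serC, phosphoserine aminotransferase, the middle step of serine synthesis. It ran from 1174 to 3003 CPM at 0% (median 2075), from 1371 to 2801 at 0.5% (median 2431), from 2210 to 3514 at 1% (median 3067) and from 1908 to 3880 at 2.5% (median 2377). All 10 libraries at 1% were above the 0% mean, although the ranges overlapped. The log2 change was 0.53 ± 0.16 at 1% (adjusted p = 0.032), 0.21 ± 0.16 at 0.5% and 0.29 ± 0.16 at 2.5%. Leaving out libraries 76 to 81 ended the call (0.54, adjusted p = 0.079), as did the covariate (0.56, 0.11). It was lost too without any of 0% replicates 1, 3, 6, 7 and 9 or 1% replicates 5, 7 and 10, with adjusted p-values of at most 0.11.

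The lysine and diaminopimelate genes took the largest part of the members' counts in D. muris, with medians of 4256 CPM at 0% and 4566 at 2.5%. Dihydrodipicolinate synthase, dapA, ran from 1120 to 2267 CPM at 0% (median 1861) and from 1354 to 2701 at 2.5% (median 1701), a log2 change of 0.11 ± 0.17. The lysyl-tRNA ligase lysU had medians of 834.3 and 920.9 CPM and aspartokinase, lysC, 718.1 and 521.1. The largest change in this pathway was in lysJ, a symbol of the alternative aminoadipate route, at 1.01 ± 0.42 (adjusted p = 0.12), with all 9 libraries at 2.5% above the 0% mean. None of the 7 tested was called. In the remaining pathways thrA, the aspartokinase and homoserine dehydrogenase gene, had medians of 819.2 and 789.9 CPM, the shikimate dehydrogenase gene aroE 224.6 and 257.3, the histidinol-phosphatase gene hisK 128.4 and 196.0, and metK, S-adenosylmethionine synthetase, 359.5 and 260.6. None of these 4 was called at any dose.

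X. muris gave no call among its 9 tested members at any dose. Of its 670 tested features, 0% were called in either direction at 0.5%, 5.37% were higher and 1.19% lower at 1%, and 9.55% higher and 1.49% lower at 2.5%. An unadjusted edgeR p under 0.05 was found for 1 member at 0.5% and for 0 at the other doses, and DESeq2 called 0. The median log2 change of the members at 2.5% was 0.52, beside 0.51 over all tested features. The 0% libraries were thin: thrA had a count in 4 of 7 of them, with 0 to 746.5 CPM (median 100.7), and 269.4 to 525.4 at 2.5% (median 378.8). Its log2 change was 0.52 ± 0.47 (adjusted p = 0.52), but 2.30 (adjusted p = 0.023) without 0% replicate 7. The methylenetetrahydrofolate reductase gene metF had a count in 3 of 7 libraries at 0% and ran from 132.0 to 277.8 CPM at 2.5% (1.03 ± 0.64, adjusted p = 0.32). The aroB, argH, hisD and dapB genes had changes of 0.55 ± 0.51, 0.08 ± 0.64, -0.13 ± 0.67 and 1.33 ± 0.83.

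In L.bacterium335 the members were almost absent without broccoli and present with it. At 0% 45 of the 48 members had 0 counts over all 10 libraries, and a library held a median of 1.5 members with a count. That median was 24.5 at 0.5%, 35.5 at 1% and 46 at 2.5%. The whole genome did the same: a median of 13.4% of its features had a count at 0% and 76.1% at 2.5%, and among its 1384 tested features 77.8% were higher and 15% lower at 2.5%. At 1% these shares were 78.4% and 1.52%, and at 0.5% 79.4% and 0.723%. The 19 members called higher at each dose, and the 1 called lower at 2.5%, stood beside that background.

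Because 18 of the 20 tested members had 0 counts at 0%, only lower bounds can be given, with 3 counts over the group as the floor. At 2.5% these ran from at least 23.9-fold to at least 73.6-fold higher, with a median of 37.9. The dihydrodipicolinate reductase gene dapB, which precedes the branches to diaminopimelate, was at 0 in all 10 control libraries. It ran from 25.7 to 226.8 CPM at 0.5% (median 147.7), from 0 to 337.2 at 1% (median 168.2) and from 0 to 348.2 at 2.5% (median 260.6), at least 72.1-fold higher. The S-adenosylmethionine synthetase gene metK had a median of 242.5 CPM at 2.5% (at least 73.6-fold), the methionine-binding protein gene metQ 168.4 (at least 58.8-fold) and the histidine regulatory subunit gene hisZ 184.6 (at least 52.3-fold). The proline gene proA reached a median of 174.4 CPM (at least 47.95-fold) and dapL_2 118.6 (at least 38.1-fold). Phosphoserine aminotransferase copy serC_2 had 2 counts at 0%, all in replicate 6, and 1684 at 2.5%, so its ratio was 94.6 (95% interval from counting error, 26.1 to 781.4). Its fitted log2 change moved from 6.04 to 8.73 without that library and to 5.41 without 2.5% replicate 8. All 8 arginine genes, none of which passed the filter, had 0 counts at 0% and a summed median of 491.2 CPM at 2.5%.

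The exception was hisC_3, a copy of the histidinol-phosphate aminotransferase gene. It held 895 of the 903 counts that the members had at 0% and was counted in all 40 libraries. How reads shared with other copies or with related genomes were counted is not given in the labels, so whether these counts came from this bacterium was not tested. It ran from 329.6 to 1565 CPM at 0% (median 992.6), from 339.7 to 2561 at 0.5% (median 601.7), from 261.5 to 1829 at 1% (median 526.8) and from 42.9 to 1440 at 2.5% (median 166.4). Only 1 of 10 libraries at 2.5% lay above the 0% mean, and the log2 change was -1.89 ± 0.54 (adjusted p = 0.00089). This fall depended on the scaling: with RLE size factors the change was 0.07 (adjusted p = 0.89). The covariate fit gave -0.62 (adjusted p = 0.29). RLE also moved the median over all tested features from 7.94 to 9.20, a smaller move than that of hisC_3, and the cause of the reversal was not tested. The library above the mean was 2.5% replicate 9, which had 3 members with a count where the others had 44 to 48, and 115 of its 118 member counts were on hisC_3. Without it the change was -2.78 (adjusted p = 8.3e-08).

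**Figure D4:**
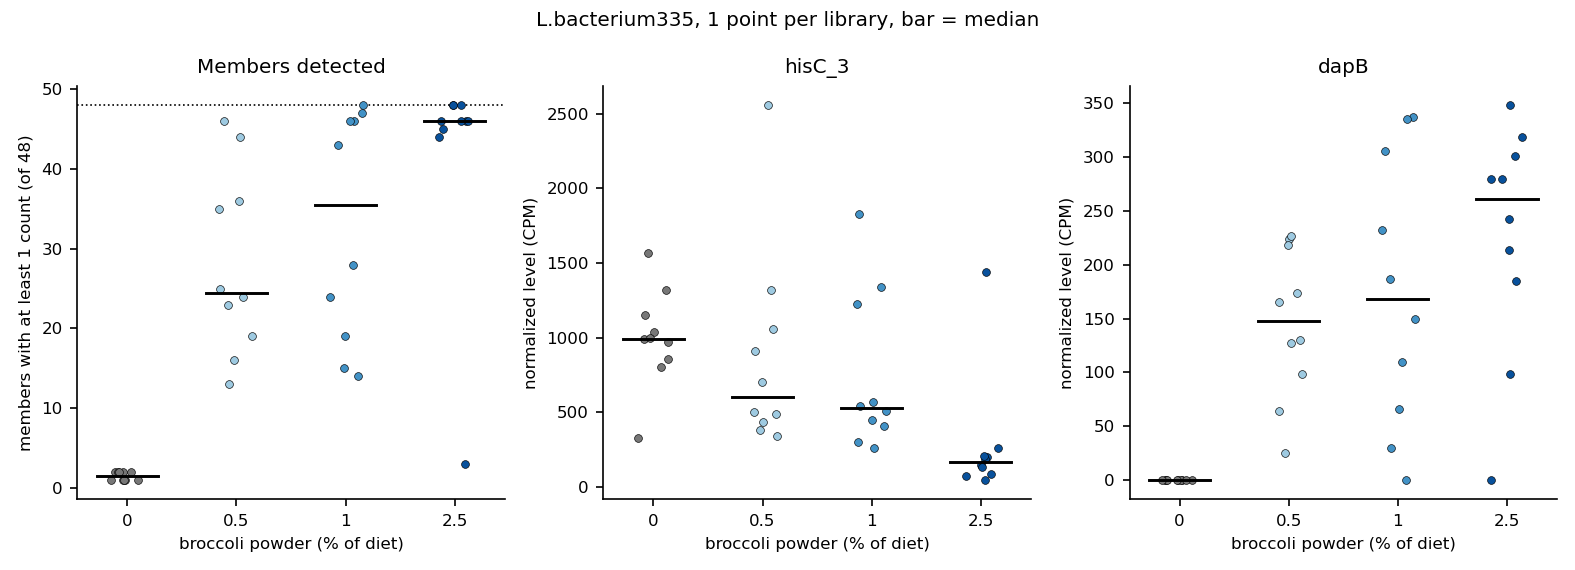
L.bacterium335 by percent of broccoli powder (horizontal axes), 1 point per library and a bar at the median: the number of members with at least 1 count, with a dotted line at all 48, the hisC_3 level and the dapB level in CPM (vertical axes). One library at 2.5%, replicate 9, lies with the 0% libraries in all 3 panels.

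Another copy, hisC_1, was patchy across libraries. It had no count at 0% or 0.5% and was counted in only 7 libraries of L.bacterium335, with 3, 68 and 59 counts in 1% replicates 2, 3 and 4 and 126, 4, 238 and 318 counts in 2.5% replicates 5, 6, 7 and 8. The copies hisC_2 and hisC_4 had counts in 23 and 20 libraries. None of these 3 copies passed the low-count filter.

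Acetatifactor had counts too low for most of its members. Of 50, 27 had no count at 0%, and the 10 control libraries held 109 counts on members in all, beside 836 at 0.5%, 2138 at 1% and 7024 at 2.5%. Of its 773 tested features, 54.5% were higher and 22.5% lower at 2.5%, 49.5% and 18.2% at 1%, and 21.6% and 3.49% at 0.5%. Of the 4 members tested, 3 were called higher at 2.5%, 3 at 1% and 1 at 0.5%, and none lower. EPSP synthase, aroA, the chorismate gene that glyphosate targets in plants, had 0 counts at 0% and medians of 86.0, 122.6 and 232.5 CPM at 0.5%, 1% and 2.5%. It was at least 12.3-fold, 10.95-fold and 20.6-fold higher, and it passed the filter through those groups alone.

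In the other 3 tested genes of Acetatifactor the median level was higher at each higher dose. dapX, the acetyl-diaminopimelate aminotransferase gene, was counted in 3 of 10 libraries at 0% and in 9 of 10 at 2.5%, with a median of 324.0 CPM there and a log2 change of 2.85 ± 0.78 (adjusted p = 0.0016). argG, argininosuccinate synthase, had 7 counts at 0%, all in replicate 8, and a median of 285.4 CPM at 2.5%, a change of 3.08 ± 0.77 (adjusted p = 0.00071) that became 7.36 without that library. With counts in so few 0% libraries, dapX and argG passed the low-count filter through the broccoli groups, so their calls support little. In the fit with the total as a covariate both calls at 2.5% were lost (2.29, adjusted p = 0.082, and 2.56, adjusted p = 0.051). proA had a change of 1.55 ± 0.78 (adjusted p = 0.066), which passed the threshold without any of 0% replicates 1, 3 and 9 or 2.5% replicate 8 (adjusted p of 0.024 without the first of these, with a change of 2.31) with RLE size factors (3.701, 0.00085) and without the low-count filter (1.62, 0.0499). At 2.5%, replicate 8 had 1 member with a count and 28575 counts on the genome, the fewest of its group.

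The same step was compared across bacteria where its symbol was tested in 3 or more genomes, which held for 14 symbols. For aroB, at least 44.1-fold higher at 2.5% in L.bacterium335, the log2 changes at this dose were -0.26 ± 0.47 in D. muris, 0.25 ± 0.27 in F. rodentium and 0.55 ± 0.51 in X. muris. For thrC, threonine synthase, which had 0 counts at 0% in L.bacterium335, they were 0.48 ± 0.43 in F. rodentium, 0.55 ± 0.65 in X. muris and 0.14 ± 0.35 and 0.29 ± 0.37 for the 2 copies of D. muris. For serC the changes at 1% were 0.53 ± 0.16 in D. muris and -0.33 ± 0.29 in F. rodentium. For dapL at 2.5%, dapL_1 of F. rodentium stood at 1.52 ± 0.38, dapL_2 of F. rodentium at -0.43 ± 0.28 and dapL_1 of D. muris at -0.49 ± 0.53. Copy numbers do not match copies between genomes, and dapL_2 of L.bacterium335 had 0 counts at 0%. For argG at 2.5% they were 0.77 ± 0.49 in D. muris, 0.67 ± 0.47 in F. rodentium and 3.08 ± 0.77 in Acetatifactor. There it was called, but its control counts all lay in a single library.

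D. muris and F. rodentium could be set against each other within the same libraries. Over 36 libraries and 239 symbols tested as a lone copy in both genomes, limma with Benjamini-Hochberg adjustment called 9 symbols for a different change at 2.5% (3.77%) and 0% at 0.5% and at 1%. None of the 9 members among them (argG, aroB, aroE, dapA, dapF, hisK, lysA, metK and serC) was called at any dose. The largest difference with an unadjusted p under 0.05 was in serC at 1%, 0.92 ± 0.42 higher in D. muris (adjusted p = 0.30). At this dose the median difference was 0.35 over all 239 symbols and 0.15 over the 9 members. An unadjusted p under 0.05 was found for 37 of the 239. A p that misses the threshold does not show that the 2 bacteria changed alike.

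Genes that border these pathways, feeding, draining or breaking down the same amino acids, were tested in small numbers. Unlike the named members, they were not followed through the alternative settings. In D. muris the fit with the genome total as a covariate cut the calls over all features at 2.5% from 117 to 22. In D. muris 1 of 13 tested rose and 1 fell at 2.5%, beside 3.88% and 6.68% of all tested features: the serine dehydratase gene sdaA, which turns serine into pyruvate, rose by 1.55 ± 0.37 (adjusted p = 0.0024), and the histidine breakdown gene hutI fell (-0.78 ± 0.26, adjusted p = 0.040). In F. rodentium none of 16 was called at 2.5% or 1%. At 0.5% the threonine aldolase gene ltaE rose (0.80 ± 0.19, adjusted p = 0.0063) and mtnN, which acts in methionine salvage, fell (-0.73 ± 0.21, adjusted p = 0.027). These 2 calls stood beside 3.55% higher and 4.91% lower of all tested features of F. rodentium. Leaving out libraries 76 to 81 cut its calls over all features at 0.5% from 143 of 1689 to 40 of 1677. X. muris had 0 of 5 called. In Acetatifactor carB_1 and carB_2, copies of the carbamoyl phosphate synthase subunit that supplies arginine and pyrimidine synthesis, were the only 2 tested of 17, and both rose at every dose, by 2.91 ± 0.75 and 4.96 ± 0.89 at 2.5% (adjusted p = 0.00093 and 2.0e-05). Over all tested features of that genome 21.6%, 49.5% and 54.5% were higher at 0.5%, 1% and 2.5%. A median of 17.4% of Acetatifactor features had a count at 0% and 64.7% at 2.5%, so the carB calls support little about these genes in particular. In L.bacterium335 all 6 tested of 16 (carB_1, carB_2, ddh, glyA, pheA and tdcB) were called higher at every dose, beside the same background as the members. Their log2 changes at 2.5% ran from 6.99 to 10.05, beside a median of 7.94 over all tested features. As for most members of this genome, such calls support nothing about these genes in particular.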

How the data were processed

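The authors deposited raw counts for each feature, in 1 table per bacterial genome, with all 40 libraries as columns. The aligner, counting program, genome build and handling of reads shared by gene copies were not given in the sources used here. Per the labels' protocols, ribosomal RNA was depleted before library preparation. The Alistipes table was not analysed here. The members and gene lists were chosen with earlier results of these data known.

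Each of 5 genomes was fitted alone, on libraries with at least 10000 counts, with filterByExpr, TMM factors and the quasi-likelihood test of edgeR 4.0.16 in R 4.3.3, all 4 groups sharing the spread. P-values are two-sided and adjusted by the Benjamini-Hochberg method over the tested features of a genome within a contrast, at 0.05. For X. muris, stable RNAs (ssrA, rnpB, ffs and both rrf copies) entered neither library sizes nor tests. A standard error is the size of the log2 fold change over the square root of F. Lower bounds use pooled ratios of counts over the tested features against a floor of 3 counts over the 0% group. These bounds and the 95% intervals cover counting error only. The comparison of D. muris with F. rodentium used limma 3.58.1 on differences of log2 CPM within a library (prior count of 2) and was added after the data had been seen.

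Genes were named by rule: every member called at 2.5% in a genome (8 of them in L.bacterium335), up to 3 called only at a lower dose, in genomes with fewer than 5 such genes the most counted tested member of each pathway, and symbols tested in 3 or more genomes. cysE_2, cysG_1, cysG_2, argD_1, hisD, aroE and the diaminopimelate genes other than dapL_1 and dapX of F. rodentium, lysJ, lysU and lysC of D. muris the hisC_1, hisC_2 and hisC_4 copies of L.bacterium335 and the untested cysteine genes were named after their values had been seen. Alternatives were RLE size factors, DESeq2 1.42.0, no low-count filter, a minimum of 50000 counts, leaving out libraries 76 to 81, the log2 genome total as a covariate and leaving out each library in turn. The fit was tested on simulated data, and the shares recovered are of the changed genes that were run. For 4-fold changes between 0% and 2.5% they were 97.6% in F. rodentium (1536 genes run) and 95.9% in D. muris (889). They were 97.4% in X. muris (588), 73.2% in L.bacterium335 (932) and 46.4% in Acetatifactor (541). For 2-fold changes they were, in the same order, 53.8%, 60.8%, 44.0%, 9.23% and 1.32%. Whether these shares hold for the real 0% libraries of X. muris, L.bacterium335 and Acetatifactor, which had few member counts, was not tested.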

Additional observations from a re-analysis of the deposited data

Results flagged for a closer look

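Among 88 groups of 7 to 10 libraries checked for a lone library far from the rest, 18 held one. The cut-off flags about 1 in 20 groups of normally distributed values. Many levels here were 0, and a group at 0 throughout could not be flagged, so the number flagged cannot be set against chance. In F. rodentium these were the highest aroB level at 0.5% (304.4 CPM, replicate 10), the highest cysK level at 0% (606.3, replicate 4) and the highest dapL_1 levels at 0.5% (129.5, replicate 7) and 2.5% (222.6, replicate 1). In D. muris they were the lowest serC level at 0.5% (1371 CPM, replicate 6) and the highest at 2.5% (3880, replicate 1).

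In L.bacterium335, 0% replicate 7 had the highest percent of counts on the members in its group (0.247%). Replicate 9 at 2.5% had the highest hisC_3 level (1440 CPM) and the lowest metK level (0) of its group, and replicate 9 at 1% the lowest dapL_2 level (0). The other lone libraries of this genome were the highest hisC_3 level at 0.5% (2561 CPM, replicate 7), the highest proA level at 0.5% (550.8, replicate 1) and the highest serC_2 levels at 0% (22.4, replicate 6) and 0.5% (414.4, replicate 3). In Acetatifactor they were the highest argG level at 0% (344.1 CPM, replicate 8), the lowest at 2.5% (0, replicate 8) and the highest dapX levels at 0.5% (790.7, replicate 1) and 1% (744.8, replicate 4).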

How the results depend on the processing

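Of the numbers of called members, those of X. muris stayed at 0 in all alternatives except without 0% replicate 7. In Acetatifactor the 1 call at 0.5%, of 4 members tested, became 3 of 4 with RLE size factors, 8 of 22 with DESeq2 and 13 of 50 without the low-count filter. Its 3 calls at 1% became 18 of 30 with DESeq2, 31 of 50 without the filter and 5 of 6 without libraries 76 to 81. Its 3 at 2.5% became 25 of 35, 41 of 50 and 5 of 6, and 1 of 4 with each library's total as a covariate. Over all features at 2.5% these settings called 1866 of 2838, 2538 of 3895, 628 of 886 and 126 of 773. At 0.5% RLE, DESeq2 and the fit without the filter called 370 of 773, 634 of 2234 and 811 of 3895 features. At 1% DESeq2, no filter and leaving out libraries 76 to 81 gave 1417 of 2687, 1852 of 3895 and 486 of 886. Of the 50 members tested without the filter, 27 had no count at 0%. In D. muris the call at 1% became 0 without libraries 76 to 81 and also 0 with the covariate, and the call at 2.5% became 2 with DESeq2 and 0 with the covariate. DESeq2 tested 40 members of D. muris at 2.5% and called 201 of 1946 features. In F. rodentium the 2 calls at 0.5% became 0 without libraries 76 to 81 and 1 with the covariate, and the 2 at 2.5% became 5 with DESeq2 and 1 with at least 50000 counts, without libraries 76 to 81 or with the covariate. DESeq2 tested 53 members of F. rodentium at 2.5% and called 296 of 1953 features. In L.bacterium335 the 19, 19 and 20 calls became 39, 39 and 44 with DESeq2 and 41, 46 and 45 without the filter, since those settings test more members. At 2.5% those settings tested 47 and 48 members there, and over all features they called 2706 of 3582 and 3252 of 4240. Over all features they called 2056 of 3335 and 2374 of 4240 at 0.5%, and 2249 of 3418 and 2770 of 4240 at 1%. The causes of the other differences were not tested. Leaving out each library in turn gave, at 0.5%, 1% and 2.5%, 1 to 3, 3 to 4 and 3 to 5 calls in Acetatifactor, 0 to 0, 0 to 1 and 0 to 2 in D. muris, 0 to 2, 0 to 0 and 1 to 4 in F. rodentium (4 without 2.5% replicate 1), 19 to 20, 19 to 20 and 20 to 21 in L.bacterium335 and 0 to 0, 0 to 0 and 0 to 1 in X. muris. The one reversed value was hisC_3 of L.bacterium335 with RLE size factors (0.068). RLE moved the median log2 change of all tested features at 2.5% from 1.81 to 3.84 in Acetatifactor, from 7.94 to 9.20 in L.bacterium335, from 0.01 to 0.12 in F. rodentium and from 0.51 to 0.25 in X. muris. The minimum of 50000 counts could not be run for Acetatifactor, D. muris and X. muris, where too few 0% libraries reached it. No paired analysis was possible because the replicate numbers were given in sample order and tie no libraries together. Few counts at 0% limit Acetatifactor, L.bacterium335 and X. muris, where a gene without a call may still have changed.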

Other observations

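Some sulfate assimilation and cysteine genes had few counts in D. muris, Acetatifactor and X. muris. In D. muris the 2 cysteine members were cysK, with 282 counts in 32 libraries, and cysH, a reductase of sulfate assimilation, with 5 counts in 2 libraries. Acetatifactor cysH had 6 counts in 5 libraries, and its sulfate adenylyltransferase subunit gene cysD had 37 counts in 9. All 4 cysteine members of Acetatifactor together took a median of 0 CPM of all counts on the genome at 0% and 134.3 at 2.5%. X. muris cysK had 0 counts in the kept libraries at 0% and 99 at 2.5%, while the lone cysteine member of L.bacterium335, cysE, was tested and had 0 counts at 0% and 1092 at 2.5%. Between these groups the counts on the whole genome went from 171306 to 1335331 in X. muris and from 757208 to 5194973 in L.bacterium335. In L.bacterium335, 45 of the 48 members had 0 counts at 0%, so the cysE counts are nothing particular to cysteine.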
